A study of Mus musculus with 6 samples.

Results

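The 9 genes described here encode the ligands Shh and Ihh, the receptor Ptch1, the signal transducer Smo, the co-receptor Cdon, the decoy receptor Hhip and the transcription factors Gli1, Gli2 and Gli3 of the Hedgehog pathway. They were taken by gene symbol from the deposited count table, where each symbol matched 1 of 55487 rows, and all 9 passed the filter on low counts. RNA was sequenced in 3 samples of cells derived from embryonic stem cells of Ts1Cje mice and 3 samples from stem cells of wild-type mice. The Ts1Cje strain models Down syndrome, since it carries part of distal chromosome 16 in an additional copy; from earlier work it is also known to lack a small piece of chromosome 12. Both groups were kept with LIF and serum replacement and then differentiated for 4 days with VEGF, activin A, BMP-4 and FGF2, a treatment intended to give primitive macrophage progenitors, the first macrophage-forming blood cells. Samples carry lot numbers, and the labels leave unsaid whether a lot is a line, a clone or a culture. The p-values therefore describe only how far these 6 samples scatter, in part perhaps for technical reasons, and genotype and stem cell line cannot be told apart.

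Hedgehog ligands are secreted proteins that bind PTCH1. Without ligand, PTCH1 keeps the membrane protein SMO inactive and GLI3, and to a lesser degree GLI2, is cut to a repressor, whereas with ligand SMO becomes active at the primary cilium and full-length GLI2 and GLI3 act as activators. Ptch1, Gli1 and Hhip are widely used as readouts, because they are transcribed in response to the signal, and PTCH1 and HHIP then bind ligand and dampen it. In the mouse embryo Ihh is known from visceral endoderm, where it acts on neighbouring mesoderm and on yolk sac blood and vessel formation, and Shh from the node, notochord and gut endoderm.

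All 9 genes differed between the genotypes, and neither the receptor and co-receptor genes nor the GLI genes moved as a group. Both ligand genes (Shh, Ihh) and the 3 readout genes (Ptch1, Gli1, Hhip) rose in Ts1Cje cells, while the transducer gene Smo, the co-receptor gene Cdon and the other GLI genes (Gli2, Gli3) fell. The 5 increases and 4 decreases passed an adjusted p of 0.05 in edgeR's quasi-likelihood test, and in all 9 the Ts1Cje libraries lay entirely above or below the wild-type libraries. Shh entered the test only through the Ts1Cje libraries, where it was high, and Smo lost its call in some alternatives. Changes were frequent across the table: of 17315 genes tested, 43.8% passed, 23.3% higher and 20.5% lower in Ts1Cje, and in 55.2% the groups did not overlap (28.8% with Ts1Cje above, 26.4% with Ts1Cje below). The median log2 fold change of all tested genes was −0.01 (Ts1Cje over wild-type), and none of the 9 genes lies in the triplicated segment, where 48 of 76 tested genes rose with a median log2 fold change of 0.48.

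**Figure D1:**
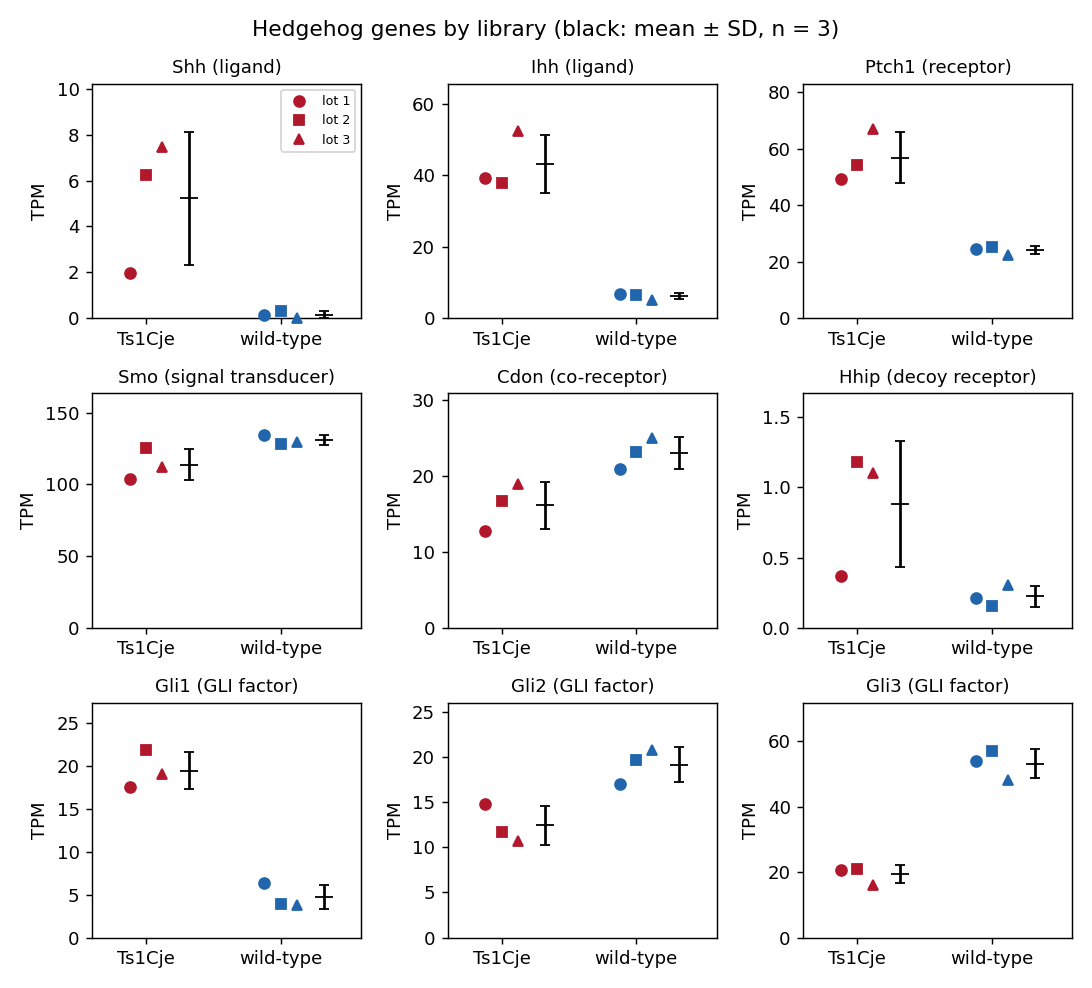
TPM of the 9 Hedgehog genes in each library, Ts1Cje (red) left of wild-type (blue), with symbols for lots 1 to 3 and black bars for mean ± SD (n = 3). Every axis starts at 0. In each panel the 2 groups do not overlap, with Shh, Ihh, Ptch1, Hhip and Gli1 higher and Smo, Cdon, Gli2 and Gli3 lower in Ts1Cje.

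Libraries held 16577065 to 19010856 counts. The genotypes were separated on the first principal component (79.1% of the variance), and the second set wild-type lot 1 off from wild-type lots 2 and 3 (score 39.4 against −9.83 and −23.7, 8.31% of the variance). The labelled cell type was only in part visible in its markers. Of 12 blood and macrophage progenitor genes, Ptprc, Itgam, Adgre1 and Cx3cr1, which mark blood cells and macrophages, had 0 counts in Ts1Cje, and Ptprc and Cx3cr1 had 0 in wild-type. Their summed level was 269.8 to 324.9 CPM (counts scaled to equal library size) in Ts1Cje and 555.1 to 673.6 CPM in wild-type. Most of the wild-type sum was Kdr, a receptor gene of early mesoderm and vessels that also stands in the mesoderm list, at 37.1 to 108.2 CPM in Ts1Cje and 420.8 to 471.7 CPM in wild-type. Without Kdr the order of the groups was the opposite, with 214 to 232.8 CPM in Ts1Cje and 134.3 to 201.9 CPM in wild-type. Most of that Ts1Cje sum was again a single gene, Kit, at 146.6 to 186.2 CPM in Ts1Cje and 35.4 to 75.3 CPM in wild-type. The order without Kdr thus rests largely on Kit. Of the 7 genes that were tested, 2 rose (Kit and Runx1) and 3 fell (Kdr, Tal1 and Itga2b). Runx1 lies in the triplicated segment. In these bulk samples fewer cells of a type and less RNA per cell cannot be told apart.

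Ihh, which encodes Indian hedgehog, was the main ligand transcript of both genotypes (ENSMUSG00000006538; mm10, chromosome 1, 74945315 to 74951672, minus strand). It had 39.1, 37.9 and 52.4 TPM (transcript abundance scaled for gene length and depth) in Ts1Cje lots 1, 2 and 3, against 6.76, 6.35 and 5.13 TPM in wild-type lots 1, 2 and 3. The lowest Ts1Cje library lay several times above the highest wild-type library. In scaled counts Ihh averaged 40.8 ± 7.73 CPM in Ts1Cje cells and 5.76 ± 0.68 CPM in wild-type (SD over 3 libraries per genotype). The log2 fold change was 2.82 ± 0.16 (SE) or 7.07-fold, with an adjusted p of 2.06e-06. Among all tested genes Ihh ranked 94 by p-value, first of the 9 Hedgehog genes.

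Shh, which encodes Sonic hedgehog, was nearly silent in wild-type cells and low but present in Ts1Cje cells (ENSMUSG00000002633; chromosome 5, 28456815 to 28467256, minus strand). Its counts were 32, 91 and 126 in Ts1Cje lots 1, 2 and 3, against 2, 5 and 0 in wild-type lots 1, 2 and 3. These correspond to 1.97, 6.23 and 7.48 TPM in Ts1Cje and 0.125, 0.306 and 0 TPM in wild-type, so that Ts1Cje lot 1 was low within its group and still above every wild-type library. The 0 counts of wild-type lot 3 allow a level of up to 0.164 CPM (3 counts). Shh passed the filter on low counts only through the Ts1Cje libraries, so its test result is given as a description. The log2 fold change was 5.11 ± 0.77 (SE, adjusted p = 0.000945), the largest of the 9, and its size was the least certain: it was 6.23 without wild-type lot 2, and 4.47 and 2.32 on the log2(TPM + 0.1) and log2(TPM + 1) scales. The summed counts, 249 in Ts1Cje and 7 in wild-type, gave a ratio of 36.3 with a 95% exact binomial interval of 17.4 to 91.2, which covers counting error only. The antisense gene 9530036O11Rik shares 8983 bp with Shh and had 74 counts in Ts1Cje and 3 in wild-type (ratio 25.2, 95% exact binomial interval 8.29 to 125). The strand setting used for counting is not known from the sources here, so reads in the shared part cannot be assigned to either gene with certainty.

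Together with Dhh, the third Hedgehog ligand gene of the mouse, ligand transcripts summed to 41.3, 44.5 and 60.2 TPM in Ts1Cje and 6.93, 6.73 and 5.17 TPM in wild-type. Ihh made up 94.8%, 85.2% and 87.2% of this sum in Ts1Cje and 97.6%, 94.3% and 99.2% in wild-type. Ihh thus dominated the ligand transcripts in every library, with the share of Shh at its largest in Ts1Cje lots 2 and 3. Dhh itself was below the filter, with 18 counts over the Ts1Cje libraries and 4 over the wild-type libraries.

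Promoter sequences show what lies before the start of the genes that moved. RefSeq (GRCm38.p6, the assembly of mm10) gave a sequence from 250 bases before to 50 after the start for 7 of the 9 genes; Shh and Gli1 had no entry. Those of the main ligand (Ihh), of the readout genes Ptch1 and Hhip and of the main decreasing factor (Gli3) are given 5′ to 3′ on the strand of the gene, with GC boxes (GGGCGG, either strand) in capitals. The Ihh window is chr1:74951623-74951922, the Hhip window chr8:80057959-80058258, the Gli3 window chr13:15463473-15463772 and the Ptch1 window chr13:63565686-63565985, each on GRCm38.p6. The RefSeq start lies 7863 bases inside the deposited gene for Ptch1, 488 for Gli3 and 30948 for Cdon, so those windows are not at the outermost start.
Ihh: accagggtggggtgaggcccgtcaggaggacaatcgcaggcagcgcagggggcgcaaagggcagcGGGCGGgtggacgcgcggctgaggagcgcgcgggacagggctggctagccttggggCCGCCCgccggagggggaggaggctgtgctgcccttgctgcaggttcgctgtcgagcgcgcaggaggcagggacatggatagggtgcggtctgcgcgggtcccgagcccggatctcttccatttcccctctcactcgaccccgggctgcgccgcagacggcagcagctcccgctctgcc
Ptch1: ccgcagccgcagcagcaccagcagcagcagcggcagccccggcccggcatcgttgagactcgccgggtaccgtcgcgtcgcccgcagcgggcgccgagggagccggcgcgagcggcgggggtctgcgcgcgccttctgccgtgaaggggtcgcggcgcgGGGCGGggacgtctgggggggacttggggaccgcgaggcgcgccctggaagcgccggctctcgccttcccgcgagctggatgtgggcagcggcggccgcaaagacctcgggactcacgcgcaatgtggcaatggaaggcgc
Hhip: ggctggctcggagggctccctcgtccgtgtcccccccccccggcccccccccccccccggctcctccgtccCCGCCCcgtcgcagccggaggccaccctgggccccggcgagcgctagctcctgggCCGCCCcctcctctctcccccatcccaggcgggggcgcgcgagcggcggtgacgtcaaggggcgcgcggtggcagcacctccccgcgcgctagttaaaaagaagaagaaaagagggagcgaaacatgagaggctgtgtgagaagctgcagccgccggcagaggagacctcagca
Gli3: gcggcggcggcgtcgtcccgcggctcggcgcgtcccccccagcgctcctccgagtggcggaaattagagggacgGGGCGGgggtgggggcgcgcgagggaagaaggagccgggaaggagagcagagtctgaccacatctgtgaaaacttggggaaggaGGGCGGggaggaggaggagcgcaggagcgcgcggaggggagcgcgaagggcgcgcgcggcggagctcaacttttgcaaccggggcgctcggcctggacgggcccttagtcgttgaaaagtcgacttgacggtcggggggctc
These 4 windows are rich in G and C, at 72.7% (Ihh), 76.3% (Ptch1), 73.7% (Hhip) and 71.0% (Gli3), and hold 2, 1, 2 and 2 GC boxes, in the same order. At least 1 GC box stood in 35.7% of all 32851 promoters of this length. The GLI binding sequence GACCACCCA, searched on both strands, was in none of the 7 windows, also with 1 mismatch allowed, and these were in 0.253% and 6.74% of all promoters. The window says nothing of sites that lie farther away.

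Ptch1, the ligand receptor and a readout of the signal, rose in Ts1Cje cells (ENSMUSG00000021466; chromosome 13, 63508328 to 63573598, minus strand). It had 49.4, 54.3 and 67.0 TPM in Ts1Cje lots 1, 2 and 3, against 24.5, 25.2 and 22.4 TPM in wild-type lots 1, 2 and 3. The wild-type libraries were close together and the Ts1Cje libraries more spread, with no overlap. The log2 fold change was 1.24 ± 0.11 (SE), or 2.36-fold, with an adjusted p of 2.46e-05. Hhip encodes a membrane protein that binds ligand without passing on a signal (ENSMUSG00000064325, chromosome 8, 79965851 to 80058006, minus strand). In Ts1Cje cells it was the least abundant of the genes that rose, and in wild-type cells it ranked just above Shh. It had 19, 55 and 59 counts in Ts1Cje lots 1, 2 and 3, against 11, 8 and 16 in wild-type lots 1, 2 and 3. Here Ts1Cje lot 1 came close to wild-type lot 3, as 0.366 TPM against 0.303 TPM, while Ts1Cje lots 2 and 3 had 1.18 and 1.10 TPM. The log2 fold change of Hhip was 1.95 ± 0.49 (SE, adjusted p = 0.00908).

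Smo, the transducer, was the most abundant of the 9 genes in both genotypes and changed least (ENSMUSG00000001761; chromosome 6, 29735503 to 29761365, plus strand). It had 103.9, 125.5 and 112.2 TPM in Ts1Cje lots 1, 2 and 3, against 134.6, 128.4 and 129.5 TPM in wild-type lots 1, 2 and 3. Ts1Cje lot 2 lay just below the lowest wild-type library. The log2 fold change of −0.21 ± 0.07 (SE, adjusted p = 0.0332) was lost with limma-trend on TPM (adjusted p = 0.0798 and 0.0793) and on leaving out Ts1Cje lot 1 (0.105) or 3 (0.0954) or wild-type lot 2 (0.0722) or 3 (0.0847). Cdon, a cell surface protein that presents ligand to PTCH1, fell (ENSMUSG00000038119; chromosome 9, 35421128 to 35507652, plus strand). It had 12.8, 16.6 and 18.9 TPM in Ts1Cje lots 1, 2 and 3, against 20.9, 23.1 and 25.0 TPM in wild-type lots 1, 2 and 3, a log2 fold change of −0.53 ± 0.14 (SE, adjusted p = 0.0138). The gap between the groups was small beside the spread within each. The ratio of Ptch1 to Smo TPM was 0.475, 0.432 and 0.598 in Ts1Cje and 0.182, 0.196 and 0.173 in wild-type.

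The 3 GLI genes moved in opposite directions. Gli1, an activator and a target of the pathway, rose (ENSMUSG00000025407; chromosome 10, 127329882 to 127341974, minus strand), with 17.5, 21.8 and 19.1 TPM in Ts1Cje lots 1, 2 and 3, against 6.33, 3.98 and 3.86 TPM in wild-type lots 1, 2 and 3. Wild-type lot 1 was the highest of its group and remained far below the Ts1Cje libraries. Its log2 fold change was 2.04 ± 0.18 (SE), or 4.11-fold, with an adjusted p of 2.24e-05. The antisense gene Gm47200 shares 9584 bp with Gli1 and had 189 counts in Ts1Cje and 82 in wild-type, beside 1622 in Ts1Cje and 404 in wild-type for Gli1 itself. As for Shh, reads in the shared part cannot be assigned with certainty.

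Gli3, whose cut form is the main repressor of the pathway, fell (ENSMUSG00000021318; chromosome 13, 15463235 to 15730026, plus strand). It had 20.7, 21.1 and 16.2 TPM in Ts1Cje lots 1, 2 and 3, against 53.8, 57.0 and 48.2 TPM in wild-type lots 1, 2 and 3. All Ts1Cje libraries were far below all wild-type libraries, and the log2 fold change was −1.46 ± 0.10 (SE, adjusted p = 7.17e-06). Gli2, the main activator downstream of SMO, fell less (ENSMUSG00000048402; chromosome 1, 118834132 to 119053619, minus strand). It had 14.8, 11.7 and 10.7 TPM in Ts1Cje lots 1, 2 and 3, against 17.0, 19.7 and 20.8 TPM in wild-type lots 1, 2 and 3, with a log2 fold change of −0.63 ± 0.14 (SE, adjusted p = 0.00508). Ts1Cje lot 1 and wild-type lot 1 were the nearest pair.

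The make-up of the GLI transcripts differed between the genotypes. Gli1 made up 33.0%, 40.0% and 41.5% of the summed TPM of the 3 GLI genes in Ts1Cje, against 8.20%, 4.93% and 5.29% in wild-type. Gli3 made up 39.0%, 38.6% and 35.2% in Ts1Cje, against 69.7%, 70.7% and 66.2% in wild-type. The share of Gli2 overlapped between the groups, at 24.2 ± 3.35% in Ts1Cje libraries and 25.0 ± 3.26% in wild-type libraries (SD, n = 3 each). The summed GLI TPM was 53.0, 54.6 and 46.0 in Ts1Cje and 77.2, 80.7 and 72.8 in wild-type. These quantities were chosen after the values of the genes were seen and are given as a description. They count RNA and do not tell how much GLI3 protein was cut.

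**Figure D2:**
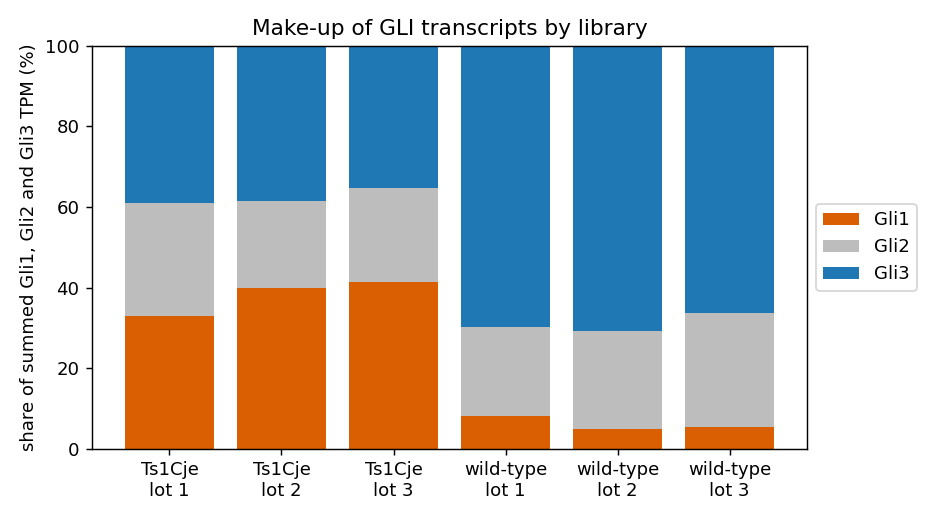
Share of the summed TPM of Gli1, Gli2 and Gli3 that each gene held, in percent, in the 3 Ts1Cje libraries (left) and the 3 wild-type libraries (right). Gli1 held 33.0% to 41.5% in Ts1Cje and 4.93% to 8.20% in wild-type, and Gli3 35.2% to 39.0% in Ts1Cje and 66.2% to 70.7% in wild-type.

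By mean TPM, Ts1Cje cells held Smo, Ptch1, Ihh, Gli1, Gli3, Cdon, Gli2, Shh and Hhip, from high to low. In this order Ptch1 and Ihh overlapped across libraries, as did the neighbours among Gli1, Gli3, Cdon and Gli2. Wild-type cells held Smo, Gli3, Ptch1, Cdon, Gli2, Ihh, Gli1, Hhip and Shh, and there the pairs Ptch1 and Cdon, Ihh and Gli1, and Hhip and Shh overlapped. Ihh thus stood at rank 3 in Ts1Cje and 6 in wild-type, and Gli3 at rank 5 in Ts1Cje and 2 in wild-type. Within 5 Mb of each of the 9 genes the median log2 fold change of the other tested genes lay between −0.15 (Ptch1) and 0.15 (Gli2), and was −0.06 around Shh and −0.01 around Ihh.

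Other genes of ligand reception changed in both directions. Lrp2, an endocytic receptor that binds Shh and is abundant in visceral endoderm, rose to 114.9 ± 41.9 TPM in Ts1Cje, against 15.1 ± 2.98 TPM in wild-type (SD, n = 3 each; log2 fold change 2.93 ± 0.34 SE, adjusted p = 0.00156). The co-receptor genes Boc and Gas1 fell, as Cdon did. Boc had 3.69, 7.45 and 4.22 TPM in Ts1Cje and 16.8, 13.0 and 12.2 TPM in wild-type (−1.46 ± 0.25, adjusted p = 0.00127), and Gas1 27.1, 38.0 and 22.8 TPM in Ts1Cje and 88.2, 57.0 and 64.3 TPM in wild-type (−1.26 ± 0.22, adjusted p = 0.00266). All 3 co-receptor genes were therefore lower in every Ts1Cje library than in every wild-type library.

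Genes of ligand release and transport also went both ways. Of 9 tested genes 3 were higher and 4 lower (33.3% and 44.4%, beside 23.3% and 20.5% of all tested genes). Scube2, a secreted protein that helps to release ligand from cells, averaged 25.6 ± 3.06 TPM in Ts1Cje and 3.71 ± 1.11 TPM in wild-type (log2 fold change 2.78 ± 0.19 SE, adjusted p = 4.94e-06), whereas its relative Scube1 fell by 3.90 (SE 0.40, adjusted p = 0.000133; −4.72 without Ts1Cje lot 2 and −2.27 on the log2(TPM + 1) scale). The heparan sulfate proteoglycan gene Gpc4 rose by 3.88 (SE 0.22, adjusted p = 1.18e-05). Gpc3, a glypican that competes with PTCH1 for ligand, averaged 389 ± 50.2 TPM in Ts1Cje and 993 ± 55.9 TPM in wild-type (−1.36 ± 0.09, adjusted p = 5.77e-06). Disp1, which exports ligand, fell by 1.05 (SE 0.12, adjusted p = 8.49e-05) and its relative Disp2 by 2.74 (SE 0.56, adjusted p = 0.00303), Disp2 on 6 counts in Ts1Cje and 43 in wild-type. Disp2 passed the filter only through the wild-type libraries, where it was high. Gpc6 rose by 0.29 (SE 0.09, adjusted p = 0.0206), and lost its call without Ts1Cje lot 3 (0.0884) or wild-type lot 3 (0.0849). Disp1 and Gpc6 lay outside the rule for naming genes and were named after their values were seen.

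**Figure D3:**
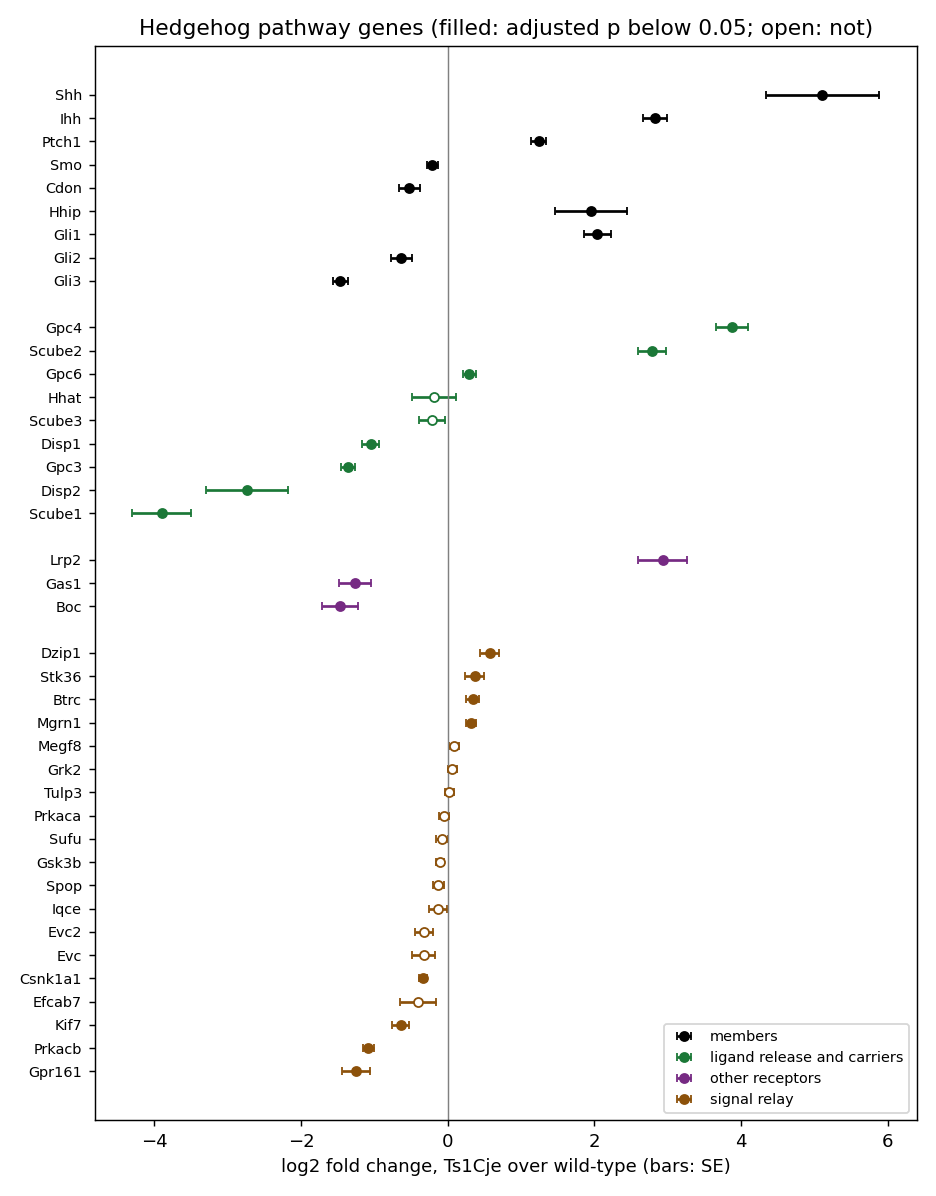
Log2 fold change (Ts1Cje over wild-type) with SE of the 9 Hedgehog genes and of tested genes of ligand release, reception and signal relay, where filled points passed an adjusted p of 0.05. The largest changes are among ligands, carriers and receptors, from −3.90 (Scube1) to 5.11 (Shh), and most relay genes lie near 0.

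Most genes that act between SMO and the GLI proteins did not pass the test. Of 19 tested relay genes 4 rose and 4 fell (21.1% each, beside 23.3% and 20.5% of all tested genes), and the median log2 fold change was −0.11. Only 2 rose without Ts1Cje lot 2, wild-type lot 2 or wild-type lot 3, and with limma-trend on TPM. Among those that fell were Gpr161, a cilium receptor that holds the pathway off through cAMP (−1.25 ± 0.19 SE, adjusted p = 0.000532), Prkacb, a catalytic subunit of protein kinase A, the kinase that marks GLI3 for cutting (−1.08 ± 0.07, adjusted p = 3.8e-06), and Kif7, a cilium tip kinesin (−0.64 ± 0.12, adjusted p = 0.0016). Dzip1, a cilium base protein, rose (0.57 ± 0.13, adjusted p = 0.00478). Stk36, the relative of the fly kinase Fused, rose by 0.37 (SE 0.13, adjusted p = 0.0438) and lost its call on leaving out any of the 6 libraries (0.0547 to 0.137) and with DESeq2 (0.0738). Sufu, which holds GLI proteins in the cytoplasm and was named outside the rule, stood at 50.3 ± 5.05 TPM in Ts1Cje and 53.0 ± 5.33 TPM in wild-type (−0.08 ± 0.09, adjusted p = 0.475). Of 23 tested genes of cilium transport and the cilium gate, 0 rose and 6 fell in edgeR's test and in DESeq2, with a median of −0.02, and 5 rose at an unadjusted p under 0.05. The count that rose was 4 with lot as a block, 3 with no filter on low counts, 2 without Ts1Cje lot 3 or wild-type lot 1 and 1 without Ts1Cje lot 1 or wild-type lot 2; in this last pair of fits 3 fell. Kif3a, a motor subunit that moves cargo into cilia (−0.83 ± 0.10, adjusted p = 0.000121), and Dync2h1, the motor that brings it back (−0.79 ± 0.08, adjusted p = 5.59e-05), fell.

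Genes known to respond to Hedgehog signalling in other tissues did not follow Ptch1, Gli1 and Hhip as a group. Of 19 such genes 12 were tested. Of these, 3 rose and 7 fell (25% and 58.3%, beside 23.3% and 20.5% of all tested genes), with a median log2 fold change of −0.45. The others were below the filter. Among them Nkx2-2 had 8, 11 and 26 counts in Ts1Cje and 2, 0 and 0 in wild-type. Grem1 went the other way, with 2, 1 and 3 counts in Ts1Cje and 9, 20 and 10 in wild-type. In the rest the groups overlapped. Nkx2-2 and Grem1 were named outside the rule. Foxf1, a Hedgehog-responsive factor of splanchnic mesoderm, had 11.5, 24.6 and 8.12 TPM in Ts1Cje and 178, 239 and 206 TPM in wild-type (−3.84 ± 0.42 SE, adjusted p = 0.00125). Bmp4, a growth factor that Ihh can induce in explants of mouse epiblast, fell by 4.43 (SE 0.37, adjusted p = 0.000381) and the cyclin gene Ccnd1 by 1.11 (SE 0.19, adjusted p = 0.00334). Foxa2, which is a target of Shh in the floor plate and itself marks endoderm and node, rose by 4.41 (SE 0.24, adjusted p = 1.16e-05), and Olig2, a target in the ventral neural tube, by 2.08 (SE 0.42, adjusted p = 0.00451; 2.85 without wild-type lot 1). Foxf1 and Bmp4 also stand in the mesoderm list and Foxa2 in the node list below, so these genes mark tissues as well as the signal. Olig2 lies in the triplicated segment of chromosome 16, so its additional copy and a response to the signal cannot be told apart.

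**Figure D4:**
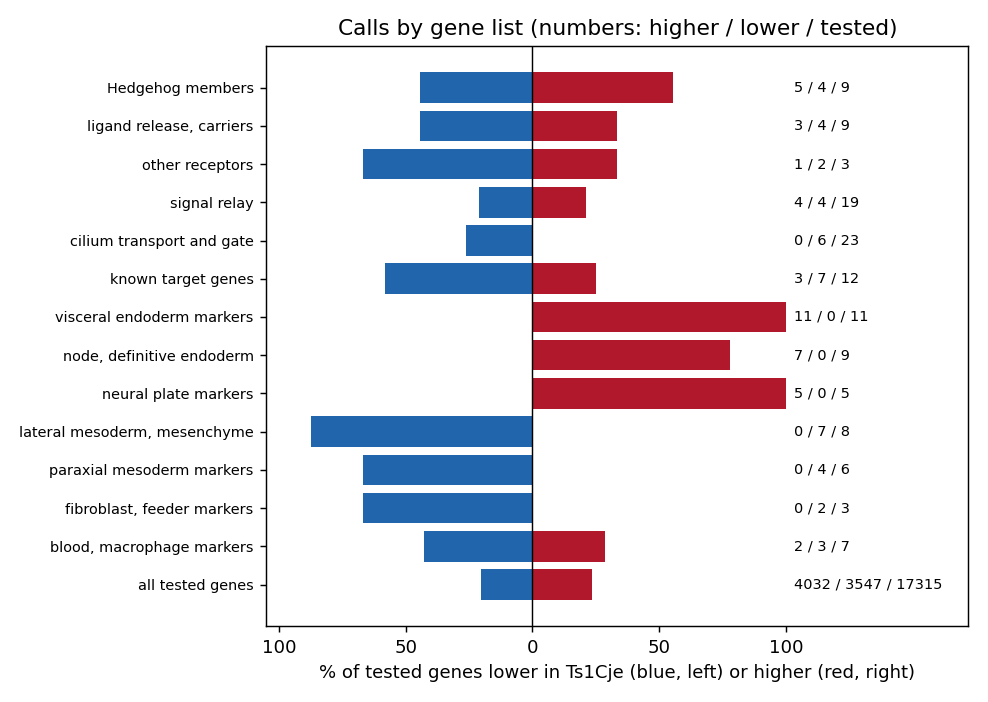
Percent of tested genes in each list that were lower (blue, left) or higher (red, right) in Ts1Cje at an adjusted p of 0.05, with the counts higher, lower and tested at the right. All 11 visceral endoderm markers rose and 7 of 8 lateral mesoderm and mesenchyme markers fell, beside 23.3% higher and 20.5% lower among all tested genes.

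Markers of the tissues known to make or to receive Hedgehog ligands moved along with these genes. All 11 markers of visceral endoderm, the known source of Ihh, rose, with a median log2 fold change of 2.35 and a summed level of 1151 to 2029 CPM in Ts1Cje and 441.1 to 558.3 CPM in wild-type. Of 9 markers of node and definitive endoderm, known sources of Shh, 7 rose, with a summed level of 573.4 to 813.4 CPM in Ts1Cje and 207.4 to 415.9 CPM in wild-type. Most of the wild-type sum was T (brachyury), an early mesoderm and notochord gene that did not pass the test, with 113.1 to 165.1 CPM in Ts1Cje and 159.4 to 366.7 CPM in wild-type. Without T the sum was 433.6 to 648.3 CPM in Ts1Cje and 42.5 to 49.2 CPM in wild-type. Noto, among the 7 that rose, passed the filter only through Ts1Cje, with 3 counts over the wild-type libraries. All 5 tested of 8 neural plate markers rose, and the list summed to 170 to 204.1 CPM in Ts1Cje and 13.7 to 27.3 CPM in wild-type. Of the tested, Six3 and Hesx1 passed the filter only through Ts1Cje, with 8 and 3 counts over the wild-type libraries. Sox1, Pax6 and Nkx2-1, named outside the rule, were below the filter. They had 24, 6 and 2 counts in Ts1Cje and 36, 6 and 3 in wild-type. Of 8 markers of lateral mesoderm and mesenchyme 7 fell, at 354.4 to 456.1 CPM in Ts1Cje and 1689 to 2163 CPM in wild-type. Of 6 paraxial mesoderm markers 4 fell (2 without Ts1Cje lot 1), at 22.98 to 53.15 CPM in Ts1Cje and 50.05 to 209.2 CPM in wild-type, where the groups overlapped. Pax3, among the 4 that fell, passed the filter only through wild-type, with 13 counts over the Ts1Cje libraries. None of these 5 lists had a marker at 0 counts in either group. Of 8 fibroblast and feeder markers 3 were tested and 2 fell (1 without Ts1Cje lot 1 or 3), at 9.81 to 11.2 CPM in Ts1Cje and 21.5 to 55.3 CPM in wild-type, with S100a4 at 0 in both groups and Lum at 0 in wild-type. Col1a1, which fell, also passed the filter only through wild-type, with 14 counts over the Ts1Cje libraries. The part of all these marker lists in the changes of the Hedgehog genes was not tested.

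**Figure D5:**
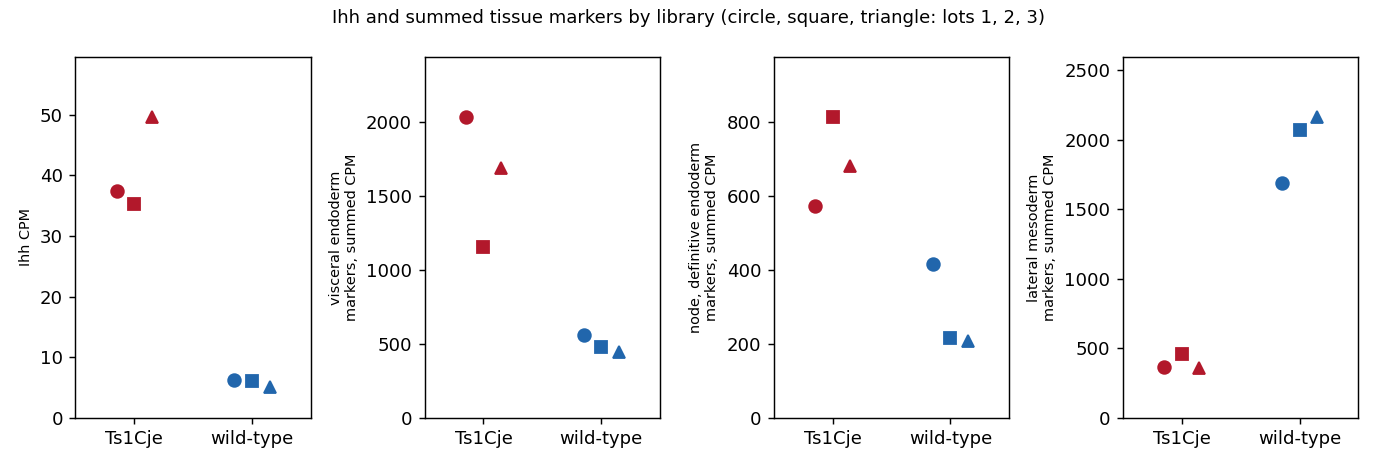
Ihh (CPM) and the summed CPM of 3 marker lists in each library, Ts1Cje (red) left of wild-type (blue), with circles, squares and triangles for lots 1, 2 and 3. Ihh and both endoderm sums are higher and the mesoderm sum is lower in all 3 Ts1Cje libraries.

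Within the Ts1Cje group, Ihh and Ptch1 were highest in lot 3, and 6 of the 11 visceral endoderm markers were highest there too, 4 in lot 1 and 1 in lot 2. The visceral endoderm sum was 2029, 1151 and 1686 CPM in lots 1, 2 and 3, and 1286, 954.5 and 1318 CPM without the endocytic receptor gene Cubn. Shh and Hhip were lowest in lot 1, where the node and definitive endoderm sum was also lowest (573.4 CPM, against 813.4 in lot 2 and 682.6 in lot 3). The highest lots matched less well. Of the 9 node and definitive endoderm markers 8 were highest in lot 2 and 1 in lot 3. By CPM, Hhip was highest in lot 2 and Shh in lot 3. The neural plate sum rose from lot 1 to lot 3 (170, 188.8 and 204.1 CPM), in the same order as Shh (1.75, 5.42 and 6.61 CPM). With 3 lots these orders are a description. Kdr, Kit, T and Cubn were singled out after their values were seen.

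The genes most like the leading member of each role were found by the root mean square distance of centred log2 CPM over the 6 libraries. For Ihh these were Mical2, an actin-oxidising enzyme gene (distance 0.066), the transcript Gm15419 (0.083) and Col4a1, a basement membrane collagen gene (0.086), with log2 fold changes of 2.85, 2.80 and 2.79. For Gli3 they were Ifitm2 (0.055), Tmem185a (0.072) and Ints6l (0.085), at −1.37, −1.54 and −1.53. For Smo they were Fbxl18 (0.024), Trim45 (0.031) and Arl6ip6 (0.031), at −0.22, −0.17 and −0.18, of which Fbxl18 passed the test (adjusted p = 0.0296) and the other 2 did not (0.367 and 0.104).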

How the data were processed

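The authors deposited 2 tables over the 6 libraries, 1 of unscaled counts for each Ensembl gene and 1 of TPM values, per the file headers. Per the labels' protocols, poly(A) RNA was selected and libraries were built with a directional kit. The submitters' processing notes name FastQC 0.11.7, Trimmomatic 0.38, HISAT2 2.1.0, featureCounts 1.6.3 and mm10; strand and multi-mapping settings: not given in the sources used here. TPM summed to 1000000 per library.

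Counts were analysed with edgeR 4.0.16 in R 4.3.3: filterByExpr (minimum count 10, minimum total 15), TMM scaling and the quasi-likelihood test (robust, genotype alone in the model). P-values were adjusted by Benjamini and Hochberg's method over the 17315 genes tested, and an adjusted p with no tool named is edgeR's. The SE, an approximation, was taken from the F statistic as |log2 fold change|/√F. TPM was used to compare genes, TMM-scaled CPM to compare libraries. Alternatives were DESeq2 1.42.0, other scaling factors and filters, limma-trend (limma 3.58.1) on log2 TPM, a lot block and leaving out each library. The main edgeR fit, DESeq2 and limma-trend on log2(TPM + 1) were also run on simulated data, and the other alternatives were not. Intervals and floors of 3 counts cover counting error only.

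Earlier results of these data were known when the Hedgehog genes, the pathway and marker lists and the naming rule were chosen. The rule named, from each pathway list, up to 5 genes past the threshold with the largest change (up to 4 for cilium and marker lists), and the 3 genes nearest to the leading ligand, receptor and GLI gene. From the marker lists counts and sums are given. Genes outside the rule are marked where named, and 1 item is not reported here. Promoter sequences are from RefSeq, GRCm38.p6.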

Additional observations from a re-analysis of the deposited data

How the results depend on the processing

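The 5 increases among the Hedgehog genes passed under every alternative that tested them; Hhip fell below the filters of the TPM fits and of a mean log2 CPM of at least 1. Over all alternatives the log2 fold changes ran from 2.63 to 2.92 for Ihh, 1.10 to 1.32 for Ptch1, 1.86 to 2.28 for Gli1, 1.70 to 2.32 for Hhip, −1.53 to −1.35 for Gli3, −0.79 to −0.54 for Gli2, −0.66 to −0.39 for Cdon and 2.32 to 6.23 for Shh. Smo kept its direction and missed the threshold with limma-trend at −0.20 with either pseudocount, and on leaving out 4 of the 6 libraries in turn, over a range of −0.27 to −0.15.

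Counts of list genes that moved by more than 1.5 times were small. With limma-trend, 2 relay genes rose with either pseudocount, and 2 to 3 on leaving out single libraries. Cilium genes that rose numbered 3 with no filter, 4 with the replicate block and 0 to 2 on leaving out single libraries, and those that fell 3 to 6. Mesoderm and mesenchyme genes that rose numbered 0 to 1 on leaving out single libraries. Paraxial mesoderm genes that fell numbered 2 with a mean log2 CPM of at least 1 and 2 to 5 on leaving out single libraries, and fibroblast genes 1 with log2(TPM + 0.1) and 1 to 2 on leaving out single libraries. The cause was not tested. In alternatives chosen after seeing the data, the log2 ratio of the mean summed CPM (Ts1Cje over wild-type) of the blood and macrophage list was −1.08, and 0.35 without Kdr; that of the node and definitive endoderm list was 1.30, and 3.56 without T; that of visceral endoderm was 1.72, and 1.54 without Cubn. Of 71 described and listed genes that passed, 57 did so under every alternative with a value, and 0 reversed.

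The labels do not say whether lot numbers pair the samples, and these values do not settle it. Deviations of same-numbered libraries from their group means correlated weakly across genes, at 0.219, 0.0589 and 0.202 for lots 1, 2 and 3. Libraries with different numbers correlated at −0.198 to 0.0387, so each library correlated best with its own number. With the replicate block, 4361 genes rose and 3965 fell across the table, against 4032 and 3547 without it, and all 9 Hedgehog genes passed. Depth limits Shh and Hhip, with 7 and 35 counts over the wild-type libraries.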
